A study of Mus musculus with 4 samples.

Results

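The odorant receptor genes of the mouse include many whose symbol carries the suffix -ps, which marks a gene named as a pseudogene. Taking every gene of the merged UMI table with a symbol that starts with Olfr and contains -ps gave 292 genes, of 1410 Olfr genes and 55511 genes in all. They were followed in single cells of the main olfactory epithelium from 4 male C57BL/6 mice (C57BL/6J in the study's methods) that were 8 weeks old, group-housed and given no odorant or other treatment, so that all mice form 1 group at rest. Each mouse gave 1 library of live, nucleated cells that had been released with papain and sorted as Hoechst+/DRAQ7-, and the mice were the replicates (n = 4 throughout). Libraries held from 23157467 to 32382702 UMIs, the counts of distinct captured transcript molecules. Cell types were those of the deposited annotation, with 10519 mature olfactory sensory neurons (mOSN), 1006 late immature neurons (iOSN2) and 866 early immature neurons (iOSN1). Omp, the marker of mature neurons, stood at 71.8 UMIs per 10000 in mOSN, 47.1 in iOSN2 and 5.73 in iOSN1, and Gap43, a growth protein of immature neurons, at 0.179, 8.69 and 32.2. Of the 15859 retained cells, 26 barcode sequences occurred in more than 1 library.

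Each olfactory neuron settles on 1 receptor gene, and on 1 of its copies, out of the whole family. An intact receptor protein then acts through a feedback signal that stabilises the choice and silences the other genes, and immature neurons can still carry transcripts of several receptors. A pseudogene lacks a usable reading frame, so a neuron that picks one receives no receptor protein from it, and such neurons are known to be able to choose again.

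The suffix joined unlike genes. In the GENCODE M21 annotation of the GRCm38 genome, 34 of the 292 -ps genes were annotated as protein coding, 45 as polymorphic pseudogenes, 14 as transcribed unprocessed pseudogenes and 199 as unprocessed pseudogenes. All 34 coding ones held a receptor reading frame of at least 250 codons, with a median of 317, against 27 of the 258 without a coding annotation, whose median was 80 codons. The 292 genes lay mostly on chromosome 2, with 85 genes, and on chromosomes 7, 9 and 19, with 52, 40 and 28. In what follows the 34 are called the coding -ps genes and the 258 the non-coding -ps genes, and the intact genes they are set against are the 1118 other Olfr genes, of which 1104 were annotated as coding.

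What breaks the frame was read by aligning a gene with its closest intact relative. The next lines show 4 such breaks in non-coding -ps genes that are described below, each beside the intact gene. For a deletion the capitals mark the bases on either side of the gap and, in the intact gene, the missing bases, and for an insertion they mark the inserted bases. For a stop they mark the codon. Olfr1372-ps1 (chr11:52155414-52155441, minus strand) lacked 2 bases at codon 287 of the 311 codons of Olfr1383 (chr11:49524567-49524596, plus strand), to which it was 97.5% identical over 934 bases. Olfr188-ps1 (chr16:59050841-59050850, minus) lacked 20 bases at codon 155 of the 307 of Olfr190 (chr16:59074610-59074639, minus). Olfr75-ps1 (chr11:73406052-73406081, minus) held 2 more bases at codon 118 of the 324 of Olfr380 (chr11:73453885-73453912, minus), and Olfr1117-ps1 (chr2:87284382-87284411, plus) a stop at codon 36 of the 327 of Olfr1118 (chr2:87308821-87308850, plus).
Olfr1372-ps1: tccaatgatgaacCCtgatttataccct
Olfr1383: tccaatgctgaaccCTctgatttataccct
Olfr188-ps1: tcgtATatac
Olfr190: ttgtaGGTGGAATTCTTCATTCTTCaatac
Olfr75-ps1: aaatgtacttttttTGattttttttggagg
Olfr380: aaatgtacttttttgttctttttggagg
Olfr1117-ps1: gttcctcatttgcagTGAgtgctgtttatg
Olfr1118: gttcctcatttgcagTGGgtgctgtttatg

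Among genes annotated as coding, detection was alike with and without the suffix, and it was far lower in the non-coding -ps genes. At least 1 UMI in a retained cell was found for 32 of the 34 coding -ps genes (94.1%), for 1044 of the 1104 other coding Olfr genes (94.6%) and for 60 of the 258 non-coding -ps genes (23.3%), or 92 of the 292 -ps genes in all (31.5%). The median gene had 251.5 UMIs among the coding -ps genes, 258 among the other coding genes and 0 among the non-coding ones. Of the 14 Olfr genes with neither the suffix nor a coding annotation 9 were detected (64.3%), with a median of 3.5 UMIs. By type, a UMI was found for 27 of the 45 polymorphic, 9 of the 14 transcribed and 24 of the 199 unprocessed pseudogenes. Olfr625-ps1 and Olfr680-ps1, named after their values were seen, were the coding -ps genes with 0 UMIs. In GENCODE M21 the longest annotated transcript had a median of 3327.5 bases in the coding and 892 bases in the non-coding -ps genes. The UMIs were counted on the authors' annotation with redrawn 3′ ends of receptor genes, and whether the models of non-coding -ps genes were redrawn is not given in the sources used here. Since only the 3′ ends of transcripts were read, an end that lies outside a gene model would not be counted, and the part of this in the low counts was not tested.

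**Figure D1:**
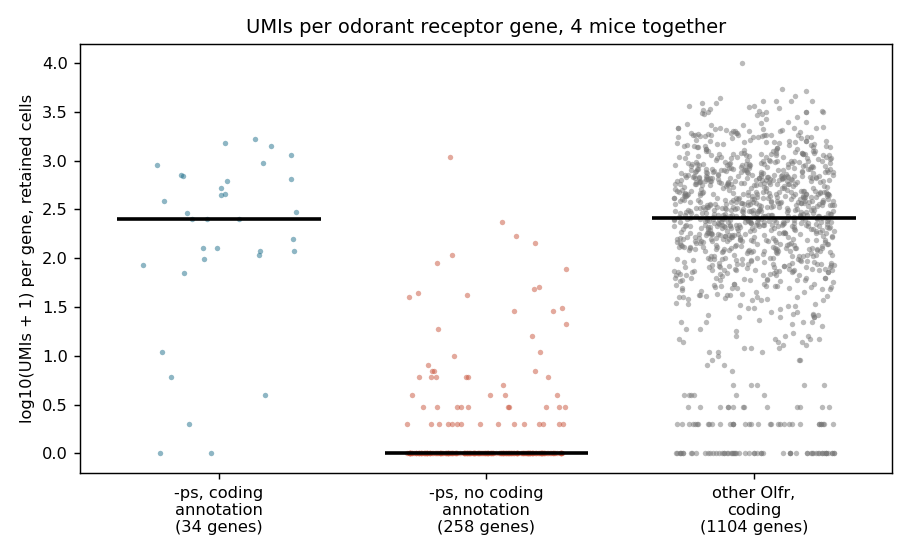
UMIs per odorant receptor gene in retained cells, 4 mice together, as log10(UMIs + 1) on the vertical axis. Each point is 1 gene, scattered sideways at random within its class, and bars are class medians. The coding -ps genes lie over the same range as the other coding genes, with medians of 251.5 and 258 UMIs, while 198 of the 258 non-coding -ps genes lie at 0.

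In mature neurons the -ps genes made up a small, steady share of all odorant receptor transcripts. They gave 2.71, 3.07, 3.29 and 2.26% of the Olfr UMIs in mOSN of mice 1 to 4, a mean of 2.83% ± 0.45 (SD, n = 4). Over the 4 mice together 2.53% came from the coding and 0.275% from the non-coding -ps genes. The share was 2.67% ± 0.80 in iOSN2, with values from 1.75% to 3.65%, and 4.19% ± 1.92 in iOSN1, with values from 2.24% to 6.80%, so that the 3 types overlapped between mice. Counted for the non-coding -ps genes alone, against annotated coding genes, the share was 0.287% ± 0.035 in mOSN, with values from 0.237% to 0.320%, and 2.33% ± 1.14 in iOSN1, with values from 1.23% to 3.85%, which did not overlap. In iOSN2 mouse 1 stood at 1.60% and the others between 0.0686% and 0.133%. For all -ps genes the share was 3.09% ± 3.23 in Mv2 cells, microvillar cells, which are not neurons, and 3.46% ± 3.91 in cells that the deposited annotation calls HBC2, which held more UMIs of sustentacular markers (24.4 per 10000) than of horizontal basal cell markers (16.8). There the level was far lower, at 0.030 ± 0.034 UMIs of -ps genes per 10000 in Mv2 and 0.165 ± 0.182 in HBC2 cells against 2.58 ± 0.41 in mOSN, 2.03 ± 0.61 in iOSN2 and 1.73 ± 1.15 in iOSN1. The share of receptor UMIs that are -ps thus did not separate neurons from these cells, while the level did.

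As the receptor that gives a neuron its identity, -ps genes took a similar share. A neuron was assigned a receptor by the study when its highest receptor was above a cutoff and no other receptor was, and all neurons with 1 receptor form a population. Of 9791 assigned mOSN, 301 had a -ps receptor, with 83, 76, 61 and 81 neurons in mice 1 to 4, or 3.09, 3.25, 3.47 and 2.70% (3.12% ± 0.32). They formed 32 populations. Coding -ps genes accounted for 28 of these populations and 293 of the neurons. A population was found for 28 of the 34 coding -ps genes (82.4%) and for 917 of the 1104 other coding genes (83.1%), with a median of 8 and 7 neurons. Populations of at least 10 neurons numbered 11 and 339.

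Non-coding -ps genes gave 4 populations with 8 neurons. Olfr1171-ps1 had 4 neurons, Olfr22-ps1 had 2, and Olfr1273-ps and Olfr1372-ps1 had 1 each, and they are named here because they are few, after their values were seen. Olfr1171-ps1 is annotated as a transcribed pseudogene yet keeps a frame of 276 codons, so a lack of a coding annotation is not always a lack of a frame. Over all 8 neurons, 2 carried a -ps identity without a frame of 250 codons. Of the mOSN whose highest receptor had at least 10 UMIs, the study assigned that receptor in 272 of 284 neurons with a coding -ps gene (95.8%), in 8799 of 9108 with another coding gene (96.6%) and in 4 of 7 with a non-coding -ps gene.

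**Figure D2:**
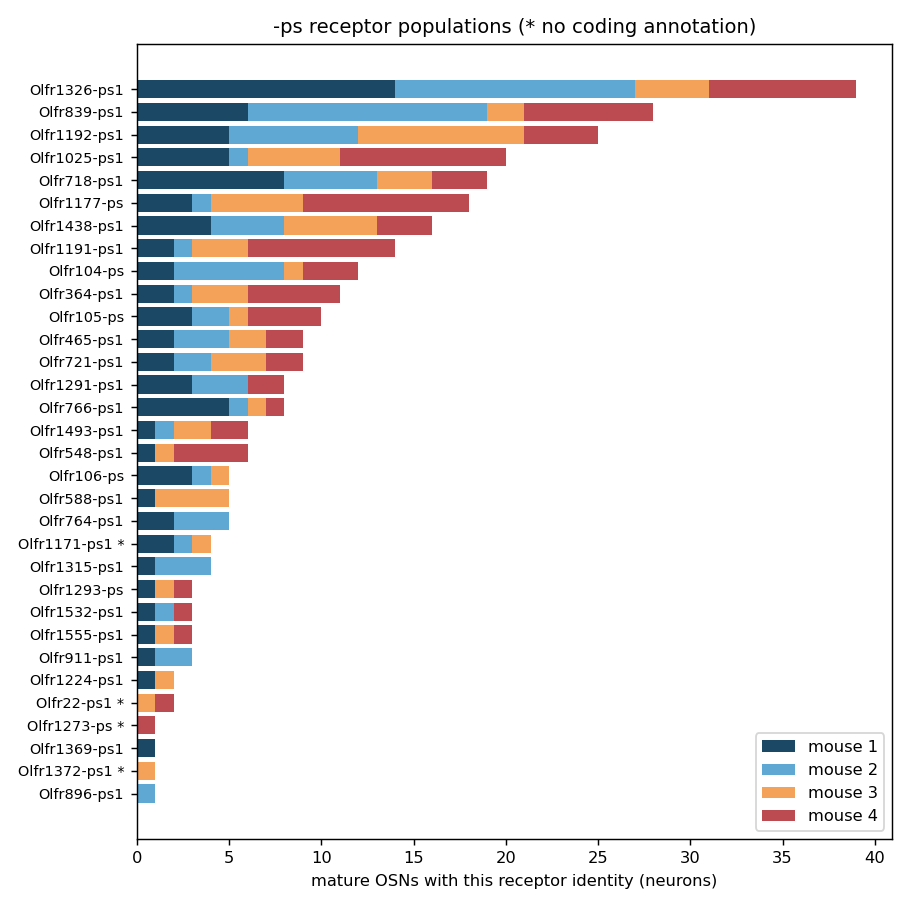
Mature OSNs assigned to each of the 32 -ps receptors, with the mouse in colour and an asterisk for genes without a coding annotation. Olfr1326-ps1 leads with 39 neurons, and the 4 receptors with an asterisk have from 1 to 4 neurons.

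The 5 largest populations held 131 of the 301 neurons (43.5%). All 5 are coding -ps genes. Olfr1326-ps1 (chrX:74569153-74574888, minus strand), on the X chromosome, had 39 neurons, with 14, 13, 4 and 8 in mice 1 to 4, at a median of 45.2 UMIs per 10000 of the neuron. All 39 fell in clusters of the ventral epithelium. Olfr839-ps1 (chr9:19168407-19177312, minus) had 28 neurons, with 6, 13, 2 and 7, of which 22 were ventral and 6 dorsal. Olfr1192-ps1 (chr2:88648509-88659772, plus) had 25, with 5, 7, 9 and 4, all ventral. Every mouse thus held neurons of each of these 3 receptors, though those of Olfr839-ps1 ran from 2 to 13. Olfr1025-ps1 (chr2:85915193-85921381, plus) had 20 neurons, with 5, 1, 5 and 9, of which 18 were dorsal, and Olfr718-ps1 (chr5:143134014-143147581, minus) had 19, with 8, 5, 3 and 3, of which 14 were ventral and 5 dorsal.

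The other populations of at least 5 neurons were smaller. Olfr1177-ps had 18 neurons, Olfr1438-ps1 16, Olfr1191-ps1 14, Olfr104-ps 12, Olfr364-ps1 11 and Olfr105-ps 10. Olfr465-ps1 and Olfr721-ps1 had 9 neurons each, Olfr1291-ps1 and Olfr766-ps1 8, Olfr1493-ps1 and Olfr548-ps1 6, and Olfr588-ps1, Olfr764-ps1 and Olfr106-ps 5. Of these, Olfr1291-ps1 had no neuron in mouse 3 and 3, 3 and 2 in the others. Olfr588-ps1 had neurons in mice 1 and 3 only, with 1 and 4. Near-identical copies limit some of these counts: Olfr1191-ps1 was 97.8% identical to Olfr1193, Olfr364-ps1 97.7% to Olfr365, and Olfr1555-ps1, with 3 neurons, 98.6% to Olfr1432, so reads that match both copies leave their values uncertain.

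How strongly a neuron expressed its -ps receptor varied between populations. Transcripts of Olfr465-ps1 ranged from 153 to 250 UMIs per 10000 over its 9 neurons, with a median of 171, and those of Olfr1191-ps1 from 15.0 to 46.7 over 14 neurons, with a median of 31.0. The ranges of these 2, out of 32 populations, did not overlap, and the values of Olfr1191-ps1 are uncertain because of its near-identical copy Olfr1193. These are counts of 3′ ends and not values per length, so they compare neurons and say nothing on transcript mass. Within mice, the median of the highest receptor was 67.5, 64.1, 69.8 and 70.0 UMIs per 10000 in neurons with a -ps identity and 80.2, 83.2, 79.3 and 80.1 in neurons with another Olfr identity. The -ps value was lower in 4 of 4 mice, with a mean log2 difference of -0.25 ± 0.09 (SD, n = 4) and an exact two-sided sign-flip permutation p of 0.125, the smallest that 4 mice allow. Thinned to 5000 UMIs per neuron the difference was -0.42 ± 0.25, and for the 8 neurons of non-coding -ps identity alone it was -1.65 ± 1.16, lower in 4 of 4 mice in both cases (p = 0.125 in the same exact test). Since 5 populations held 43.5% of all -ps neurons, the mice largely repeat the measurement on the same receptors and not on other ones.

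A further receptor, with at least 1 UMI beside the assigned one, was detected in 30.1, 22.4, 49.2 and 22.2% of neurons with a -ps identity and in 29.6, 29.5, 40.2 and 22.7% of neurons with another identity. The difference was 0.50 ± 6.62 percentage points (exact two-sided sign-flip permutation p = 0.75, n = 4), its sign changed from mouse to mouse, and it was -2.35 points without mouse 3. Thinned to 5000 UMIs per neuron, the difference was 0.242, 0.462, 10.3 and 18.4 points in mice 1 to 4, higher in -ps neurons in 4 of 4 mice, with a mean of 7.36 ± 8.74 (p = 0.125 in the same exact test, the smallest that 4 mice allow). The size of the difference thus depended on whether neurons were thinned, which also left out the shallower ones, and in both cases its mean was smaller than its SD over mice. A UMI of an Olfr gene without -ps was also found in 26.3% ± 7.7 of Mv2, 32.1% ± 9.7 of HBC2 and 30.7% ± 11.7 of sustentacular cells. Detection at 1 UMI thus did not set a further receptor apart from what such cells held.

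Neurons with a -ps identity lay unevenly over the deposited clusters, which are named for a marker and for the ventral (V.) or dorsal (D.) epithelium. Of the 293 that were clustered, 0 were in the Calb2+ V. cluster, which allows a share of up to 1.02%, against 5.85% ± 0.28 of neurons with another identity, and 0 were in Cd36+ D., against 2.21% ± 0.56. The Cd36+ V. cluster held 3 of them, or 0.98% ± 1.27 per mouse, against 5.63%. Their share was higher in Cd55+ V., at 10.6% ± 2.0 against 3.59% ± 0.63, and in Dlg2+ V., at 16.6% ± 6.0 against 8.20% ± 0.50. In Cd55+ V. the mice did not overlap, with 8.64, 13.3, 10.3 and 10.1% against 3.88, 3.63, 4.15 and 2.69%. Ventral clusters together held 68.5% of neurons with a coding -ps identity and 71.7% of those with another coding identity. The same few populations recur in all 4 mice, so the mice repeat the measurement on these receptors and not on other ones.

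Genes other than receptors were compared between the 2 kinds of neuron in UMI sums per mouse with edgeR's quasi-likelihood test, with the mouse as a block and Benjamini-Hochberg adjustment at 0.05. Of 11704 genes tested, 68 were called (0.581%), with 25 higher and 43 lower in -ps neurons. DESeq2's size factors in the same test gave 30 higher and 32 lower, or 48.4% higher against 36.8%. The count was 36 without mouse 1, 32 without mouse 2, 24 in DESeq2's own test and 20 without the block. Calb2, which encodes calretinin, was lower in -ps neurons by 2.39 on the log2 scale (SE 0.11), at 59.8, 70.4, 41.9 and 119 CPM (UMIs scaled to library size) against 459, 361, 341 and 364. Cd36, a fatty acid receptor, was at 13.8, 42.2, 0 and 0 CPM against 67.2, 93.9, 78.6 and 75.0 (log2 -2.45, SE 0.24). For both genes the groups did not overlap, and both are the names of clusters that few -ps neurons entered. Kirrel3, an adhesion molecule of olfactory axons, was lower as well (log2 -1.47, SE 0.24), as were Tuba4a, an alpha tubulin (-1.47, SE 0.16), and Dnaic2, an axonemal dynein chain (-2.72, SE 0.47). Zpld2 (1.74, SE 0.18) and Gm49542 (1.38, SE 0.19) were higher.

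The other genes of the 10 with the largest change were Avp, Trp53i11 and Ttyh2. Like Dnaic2, which had 5 UMIs in all -ps neurons together, they had few counts there. Avp, the vasopressin gene, had 10 UMIs in them (log2 -2.50, SE 0.35). Without mouse 1, which had 99.8 CPM of Avp in the comparison neurons against 4.05 to 32.3 in the others, the change was -0.996 and the adjusted p of edgeR's test 0.82. Trp53i11 and Ttyh2 had 0 UMIs in -ps neurons, so they were at least 3.11-fold and 2.80-fold lower when 3 UMIs over the group are taken as the floor. Both passed the filter on low counts through the comparison neurons alone and could only come out lower. Cd36, Avp and Dnaic2 had 0 UMIs in -ps neurons of at least 1 mouse and also passed through the comparison neurons alone. The calls of these genes are no more than a description of these counts.

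Among genes of receptor choice and feedback, 3 of 20 were called, where 0.581% of all genes tested were. This list and the next ones were chosen with earlier results of these data known. Their counts of calls are thus a description and no test against that share. Adcy3, the adenylate cyclase of odour signalling that also acts in the feedback, was lower by a small margin (log2 -0.19, SE 0.05), Nfix, a nuclear factor, was lower (-0.32, SE 0.07), and Ebf1, an olfactory transcription factor, was higher (0.19, SE 0.04). Lhx2 (0.04), Ldb1 (0.15), Atf5 (0.01), Ddit3 (0.02) and Eif2ak3 (0.20), which belong to the choice enhancers' binding proteins or to the unfolded protein response of the feedback, did not pass. The median change of the list was 0.01, against -0.02 over all genes tested. Adcy3, Nfix and Ebf1 each lost their call in at least 1 fit that left out a mouse, and also without the mouse block.

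Of the maturation genes, 2 of 12 were called, beside the same 0.581% of all genes. Stoml3, a stomatin-like protein of olfactory cilia, was lower in -ps neurons in every mouse, at 6997, 6006, 6392 and 6167 CPM against 9707, 8215, 8163 and 8775 (log2 -0.39, SE 0.04), and Cnga4, a subunit of the olfactory channel, fell by 0.27 on the log2 scale (SE 0.06). Omp (-0.03, SE 0.04) and Gap43 (-0.19, SE 0.33) did not pass, so neither marker of maturity moved beyond its error. Of the genes of activity and axon sorting, 5 of 10 were called, again beside 0.581% of all genes. Besides Calb2 and Kirrel3 these were S100a5, which follows neuronal activity (0.28, SE 0.04), Kirrel2 (0.21, SE 0.05), an adhesion molecule, and Pcdh10 (-0.59, SE 0.15), a protocadherin. The medians of these lists were -0.11 and 0.08. As for the list before, the choice of genes followed earlier results of these data, so the counts of calls carry no weight beside that share. Stoml3, Cnga4, S100a5, Kirrel2 and Pcdh10 lost their call without the mouse block (edgeR adjusted p from 0.0737 to 0.936), and Cnga4, Kirrel2 and Pcdh10 also in at least 1 fit that left out a mouse. In ventral neurons alone Kirrel2 and Ebf1 lost theirs (adjusted p = 0.36 and 0.051). The 301 neurons come from 32 populations with their own ventral or dorsal position, and the part of single populations in these differences was not tested.

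In early immature neurons, non-coding -ps genes were the highest receptor of a cell far more often than later. Leaving out Olfr1372-ps1, described below, they were the highest receptor in 18 of 709 iOSN1 with a unique highest receptor, or 2.72, 3.03, 3.70 and 1.04% in mice 1 to 4 (2.62% ± 1.13). In iOSN2 they were so in 4 of 981 cells (0.37% ± 0.52) and in mOSN in 15 of 10239 (0.145% ± 0.047). All 4 iOSN1 values lay above all 4 mOSN values, with a within-mouse difference of 2.48 ± 1.16 percentage points (4 of 4 mice, exact two-sided sign-flip permutation p = 0.125, the smallest possible). Against iOSN2 the difference was 2.25 ± 1.37 points (4 of 4 mice, p = 0.125 in the same exact test), with mouse 1 of iOSN2 at 1.09%, above the lowest iOSN1 value.

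Coding -ps genes showed no such order. They were the highest receptor in 2.94% ± 0.93 of iOSN1, 1.94% ± 1.39 of iOSN2 and 3.07% ± 0.36 of mOSN, and iOSN1 differed from mOSN by -0.12 ± 0.99 points (2 of 4 mice higher in iOSN1, exact sign-flip permutation p = 0.75). The 14 Olfr genes that have neither the suffix nor a coding annotation were the highest receptor in 7 iOSN1, 2 iOSN2 and 1 mOSN.

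**Figure D3:**
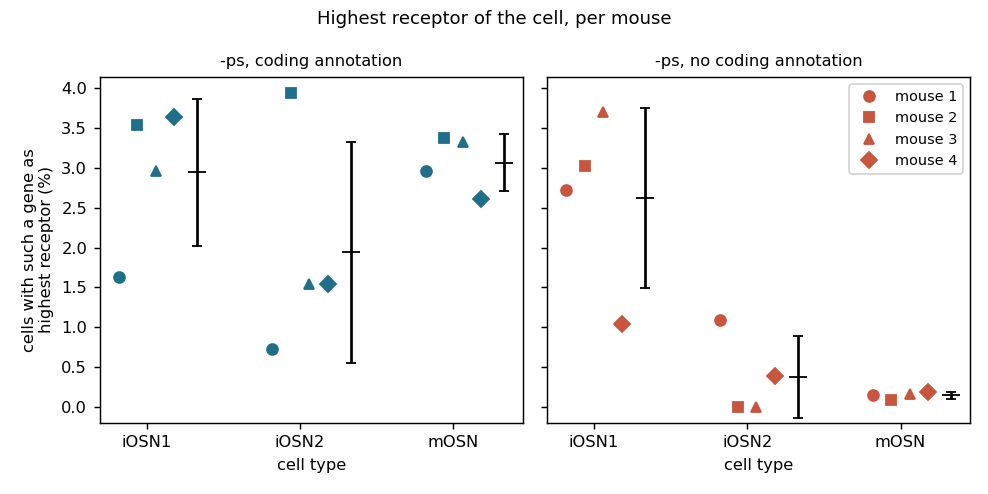
Percent of cells whose highest odorant receptor was a -ps gene, among cells with a unique highest receptor, for coding genes on the left and non-coding genes without Olfr1372-ps1 on the right. Symbols are mice, and bars give the mean ± SD over 4 mice. On the right, iOSN1 stand between 1.04% and 3.70% and mOSN between 0.081% and 0.191%, while on the left the 3 cell types overlap.

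Depth differed between the types, with a median of 6830.5 UMIs per cell in iOSN1, 7301.5 in iOSN2 and 4861 in mOSN. Thinned to 5000 UMIs per cell, the shares were 2.57% ± 1.18, 0.43% ± 0.57 and 0.22% ± 0.08, and without the 4% of cells with the most UMIs, where doublets would gather, 2.88%, 0.30% and 0.15%. Counting only cells whose highest receptor had at least 10 UMIs left 11 of 505 iOSN1, 2 of 928 iOSN2 and 7 of 9399 mOSN. The share of cells with any UMI of these genes was 6.53% ± 1.85 in iOSN1 (4.48% thinned), 1.16% ± 0.92 in iOSN2 and 0.66% ± 0.14 in mOSN. In cells that are not neurons it was 0.115% ± 0.133 in Mv2, 0.521% ± 0.774 in HBC2 (3 of 544, up to 1.64% in a mouse) and 0.926% ± 1.85 in Mv1 (2 of 124, up to 3.70%), at median depths of 5081, 7186.5 and 3353 UMIs, and 0 of 336 in sustentacular cells, which allows a share of up to 0.893%. In INP cells, the precursors of neurons, it was 3.21% ± 2.46. The mOSN mice, from 0.475% to 0.795%, and the iOSN2 mice, from 0.386% to 2.48%, overlapped those of HBC2 and Mv1, so a share of cells with a UMI did not set them apart from these types. In iOSN1 the lowest mouse, at 4.24%, lay above every mouse of the non-neuronal types, though thinned Mv1 cells, of which 26 were deep enough, stood at 4.17%.

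The iOSN1 cells with such a receptor could hold many transcripts of it. The non-coding genes of the next sentences, down to Olfr947-ps1, were chosen after their values were seen, as those with the most UMIs. Olfr75-ps1, whose 2-base insertion is shown above, had 77 UMIs in 1 iOSN1 of mouse 2, or 70.0 per 10000, beside mouse medians of 64.1 to 70.0 for the receptor of mature neurons with a -ps identity. That cell had no other receptor UMI, 0 Omp and 14 Gap43 UMIs. Olfr188-ps1, with the 20-base deletion, had 75 UMIs in 1 iOSN1 of mouse 3 and 48 and 42 in 2 iOSN1 of mouse 2. Over all mice it had 166 UMIs in 4 iOSN1 and 1 UMI each in iOSN2 and mOSN, so nearly all of its UMIs were in early neurons. Olfr856-ps1 reached 65 UMIs in 1 iOSN1 of mouse 1, Olfr537-ps1 35, Olfr542-ps1 26 and Olfr1300-ps1 23 and 20. In Olfr1117-ps1, which has the early stop shown above, 19 UMIs in 1 iOSN1 came with 6 of its neighbour Olfr1116.

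In iOSN2 the highest values were 142 UMIs of Olfr1060-ps1 in 1 cell, or 180 per 10000, and 104 of Olfr947-ps1 in a cell that also held 81 of Olfr695. The latter cell had 18407 UMIs in all against a median of 7301.5 for its type, and whether it was a doublet was not tested. Olfr1060-ps1 keeps a frame of 299 codons although it is annotated as an unprocessed pseudogene. Among mOSN, Olfr300-ps1 had 233 UMIs in 7 neurons, with 26, 65, 109 and 33 in mice 1 to 4, and 0 in iOSN1 and iOSN2. Its frame covers 187 codons, and no neuron had it as identity. It was the unique highest receptor in 2 of the 7 neurons, where it had 37 and 21 UMIs beside 12 of Olfr769 and 4 of Olfr1361. In the other neurons, among them the one with its most UMIs (72), another receptor had at least as many.

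Sums per mouse of immature and mature neurons were then tested over all genes with edgeR's quasi-likelihood test. In such sums fewer neurons with a receptor and fewer transcripts per neuron cannot be told apart. In iOSN1 against mOSN, 85 -ps genes had a UMI and 17 passed the filter on low counts. A gene can pass this filter through its counts in mOSN alone. With few or no counts in the immature cells it can then only come out lower there. The counts of calls therefore carry no weight on their own. Of the 17 genes, 12 were called, all lower in iOSN1, where 64.2% of all genes tested were called and 33.2% called lower. With no filter 35 were called, 23 lower and 12 higher, beside 10026 of 27399 genes, 4067 of them higher. Among the 477 other Olfr genes that passed, 263 were called lower and 1 higher. In iOSN2 against mOSN, 68 -ps genes had a UMI, 18 passed the filter and 8 were called, all lower, where 38.4% of all genes were called and 19.0% called lower. With no filter 21 were called, 19 of them lower, beside 5375 of 26297 genes, 2071 of them higher. Other Olfr genes gave 158 lower and 13 higher of 514.

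Olfr718-ps1 had the most UMIs of all -ps genes in mOSN, with 581, 365, 334 and 194 in mice 1 to 4, against 7, 5, 2 and 2 in iOSN1 and 0, 1, 1 and 0 in iOSN2. Its log2 change was -3.65 (SE 0.21) in iOSN1 and -6.66 (SE 0.42) in iOSN2, and all mOSN values lay above all immature ones. Scaled to library size they were 16.1 to 40.6 CPM against 1.17 to 3.18 in iOSN1, and 14.8 to 36.8 against 0 to 0.534 in iOSN2. The mOSN UMIs of Olfr718-ps1 lay in few of the 10519 neurons, as given below. Such neurons could be missed among 866 iOSN1 and 1006 iOSN2. Olfr1438-ps1 had 186, 178, 290 and 96 UMIs in mOSN and 0 in iOSN1, at least 29.7-fold lower when 3 UMIs are taken as the floor. That limit treats UMIs as independent. Only 16 of the 10519 mOSN had this gene as identity, and such neurons could be missed among 866 iOSN1. In iOSN2 it had 61, 76, 1 and 0 UMIs and did not pass (log2 -0.35, SE 1.02). The iOSN2 counts came from 3 cells. Olfr300-ps1 was called in both at 0 UMIs, but its mOSN UMIs lay in 7 of 10519 neurons, and such neurons could be missed among 866 iOSN1 and 1006 iOSN2. Also called in iOSN1 were Olfr364-ps1 (log2 -5.88), Olfr1191-ps1 (-4.84), Olfr721-ps1 (-4.65), Olfr465-ps1 (-3.64), Olfr839-ps1 (-2.999), Olfr105-ps (-2.93), Olfr1326-ps1 (-2.41) and Olfr1192-ps1 (-1.82, lost without the mouse block, at -1.43), and in iOSN2 Olfr104-ps, Olfr364-ps1, Olfr766-ps1 and Olfr1191-ps1, each at 0 UMIs there. These genes passed the filter through mOSN alone, as did Olfr718-ps1 and Olfr300-ps1 in both comparisons and Olfr1438-ps1 in iOSN1. All of these calls are no more than a description of these counts. Olfr839-ps1 in iOSN2 (log2 -2.22, edgeR adjusted p = 0.0435) lost its call without any 1 of the 4 mice, with adjusted p from 0.052 to 0.085. It had 0 iOSN2 UMIs in mice 1 and 3 and passed the filter through mOSN alone, so this call too is no more than a description of these counts.

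Several members were carried by very few immature cells. Olfr104-ps had 135 UMIs in a single iOSN1 of mouse 2 and 0 in the other mice (log2 -0.74, SE 0.96, not called), and without mouse 2 it was called lower (log2 -8.75). For Olfr1025-ps1 41 of its 43 UMIs in iOSN1 were from the same mouse, and without it the change went from -1.75 (not called) to -5.90 (called). Without mouse 2 Olfr104-ps and Olfr1025-ps1 passed the filter on low counts through mOSN alone. Few mOSN had either gene as identity, and such neurons could be missed among the iOSN1 of the remaining mice. Both calls are no more than a description of these counts. For Olfr465-ps1 iOSN2 gave 0, 111, 156 and 182 UMIs from 4 cells against 408, 386, 279 and 132 in mOSN (log2 1.26, SE 0.88, not called). Without mouse 1 it was higher in iOSN2, with a log2 change of 2.06 and an edgeR adjusted p of 0.017. That fit left out the mouse with 0 UMIs and rests on the same 4 cells, so the call is no more than a description of these counts.

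Ventral and dorsal mOSN were compared in the same way, a comparison chosen after the data were seen. Of 56 -ps genes with a UMI 14 passed the filter and 11 were called, where 25.5% of all 12406 genes and 388 of 443 other Olfr genes were. On the ventral side Olfr465-ps1, Olfr1326-ps1 and Olfr1438-ps1 had 1205, 856 and 750 UMIs and 0 in dorsal neurons, and Olfr1192-ps1 (log2 8.53, SE 0.28) and Olfr721-ps1 (7.02, SE 0.40) had 1 dorsal UMI each. They passed the filter through the ventral side alone and could only come out higher there. On the dorsal side were Olfr1025-ps1 (-4.88, SE 0.50), Olfr766-ps1 (-4.00, SE 1.07), Olfr1177-ps (-3.64, SE 0.68), Olfr104-ps (-3.60, SE 0.37) and Olfr105-ps (-3.57, SE 0.73). Of these, Olfr1025-ps1, Olfr104-ps and Olfr105-ps had 0 ventral UMIs in at least 1 mouse and passed the filter through the dorsal side alone. Their calls are no more than a description of these counts. Olfr364-ps1, Olfr839-ps1 and Olfr718-ps1 did not pass, at -0.91, 0.86 and 0.36, and had neurons on both sides. Olfr766-ps1 lost its call without mouse 1, 2 or 3 (edgeR adjusted p = 0.11, 0.07 and 0.066), and Olfr1177-ps lost its call in DESeq2's own test.

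The sixth ventral gene was Olfr1372-ps1, which behaved unlike any other -ps gene. It is a transcribed pseudogene on chromosome 11 (chr11:52154722-52168159, minus strand) with the 2-base deletion shown above. Its 961 UMIs in mOSN, with 268, 225, 202 and 266 in mice 1 to 4, were spread over 700 of 10519 neurons (6.71% ± 0.49), at 1 UMI in 515 of them and never above 6. By comparison, the 1474 UMIs of Olfr718-ps1 lay in 36 neurons. The share of cells with a UMI was 5.76% ± 1.35 in iOSN1 (3.57% thinned), 2.36% ± 0.94 in iOSN2 and 0.166% ± 0.113 in Mv2 cells (3 of 1768). In the other non-neuronal types it was 1.43% ± 1.82 in HBC2 (up to 4.10% in a mouse), 0.966% ± 1.41 in sustentacular cells (up to 2.99%) and 0.862% ± 1.72 in HBC1 (up to 3.45%), with 0 of 124 Mv1 cells. The mOSN mice, from 6.30% to 7.42%, lay above all of these, whereas the iOSN2 mice, from 1.06% to 3.09%, overlapped them. It was lower in iOSN1 than in mOSN by 1.01 on the log2 scale (SE 0.20, edgeR adjusted p = 0.0015) and lower in iOSN2 by 2.28 (SE 0.21, adjusted p = 0.000211).

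This low level was ventral. A UMI was found in 9.35, 8.29, 10.6 and 8.55% of neurons of the ventral clusters in mice 1 to 4, in 616 of 6806 (9.20% ± 1.05), and in 0.12, 0.17, 0.18 and 0.13% of the dorsal clusters, in 4 of 2733 (0.15% ± 0.03). The ventral to dorsal log2 change was 6.20 (SE 0.22), with 1 dorsal UMI in each mouse. The gene passed the filter on low counts through the ventral side alone, so this change is no more than a description of these counts. Within the ventral side the share of neurons with a UMI was 10.7% ± 1.8 in Ventral, 9.85% ± 3.21 in Cd36+ V. and 8.39% ± 2.29 in Dlg2+ V., but 2.83% ± 1.64 in Calb2+ V. and 1.09% ± 0.91 in Cd55+ V. The ventral clusters thus differed among themselves.

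Populations differed widely. Of 9791 assigned neurons 628 held a UMI of Olfr1372-ps1, in 207 of 960 populations. Among the 160 ventral populations of at least 15 neurons, 93 had a neuron with a UMI and 67 had none, the median share was 5.13%, and 31 exceeded 20%. Olfr1347 led with 14 of 23 neurons (60.9%, 95% Wilson interval 40.8 to 77.8), found in 6 of 10, 2 of 2, 2 of 4 and 4 of 7 neurons of mice 1 to 4, and Olfr1346 followed with 10 of 17. Both lie on chromosome 7, while Olfr1372-ps1 is on chromosome 11. The largest ventral populations with no such neuron were Olfr728 with 0 of 83 (Wilson upper limit 4.42%), Olfr55 with 0 of 75 and Olfr239 with 0 of 71. Populations at both ends of this order were named after their values were seen. Of the 51 dorsal populations 2 had a neuron with a UMI, in 2 of 1270 neurons.

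**Figure D4:**
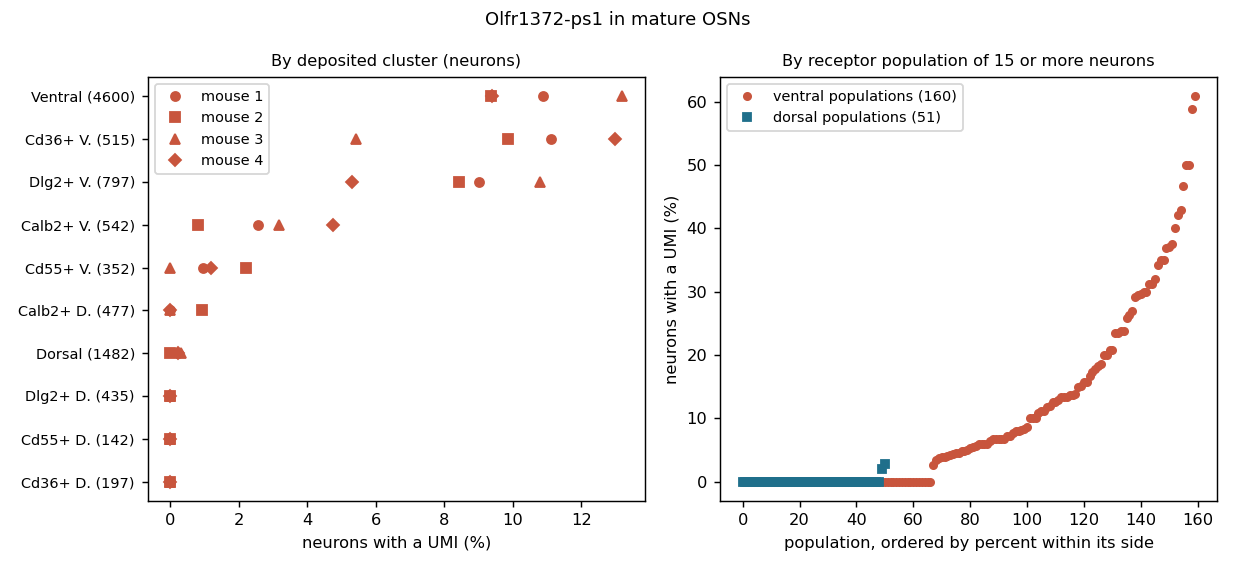
Percent of mature OSNs with at least 1 UMI of Olfr1372-ps1. On the left each symbol is 1 mouse in 1 deposited cluster, with the number of neurons in parentheses, and on the right each point is 1 receptor population of at least 15 neurons, ordered by percent within its side. Ventral clusters other than Calb2+ V. and Cd55+ V. lie above 5%, all dorsal clusters below 1%, and ventral populations run from 0 to 60.9%.

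No gene model overlapped that of Olfr1372-ps1. The adjacent receptors Olfr1373 and Olfr1371 had 0 UMIs in mOSN, and Ppp2ca, a phosphatase subunit on the other strand of the same locus, was found in 35.2% of ventral and 33.9% of dorsal neurons. The near-identical Olfr1383 had 824 UMIs in 23 mOSN, of which 3 also held Olfr1372-ps1. The part of reads that match both genes was not tested.

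As a further receptor beside the assigned one, the -ps genes gave 740 of 3441 detections in assigned mOSN, or 21.7% ± 4.3 per mouse, and 627 of the 740 were Olfr1372-ps1. At 2 or more UMIs per receptor the share was 45.1% ± 6.2, with Olfr1372-ps1 included. That gene was at 1 UMI in 469 of its 627 detections, against 103 of 113 for the other -ps genes. The share without it was not computed at this cutoff. At 1 or more UMIs and without Olfr1372-ps1, 113 remained, 4.03% ± 0.83 of the rest, beside 3.12% ± 0.32 of identities. After Olfr1372-ps1, the members most often found as further receptors were Olfr718-ps1 (14), Olfr1177-ps (10), Olfr1192-ps1 (9), Olfr364-ps1 (6) and Olfr1117-ps1 (6). Nearly all were at 1 UMI, in 103 of the 113 detections.

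Apart from Olfr1372-ps1, further receptors of the -ps kind often lay beside the identity gene. Over all 740 detections 51 lay within 100 kb of it (6.89%), with 6.60, 5.49, 8.02 and 7.37% in mice 1 to 4, which is below the share of other Olfr genes in every mouse, and Olfr1372-ps1 was near in 0 of its 627 detections. Without it the share was 51 of 113 (45.1%), with 52.0, 40.9, 34.2 and 57.1% in mice 1 to 4, against 412 of 2701 (15.3%) for other Olfr genes, with 14.7, 14.9, 15.0 and 16.8%. The mice did not overlap. For non-coding -ps genes the share was 32 of 43 (74.4%) and for coding ones 19 of 70 (27.1%). Of the 51 near ones 35 lay downstream on the same strand, 13 on the opposite strand and 3 upstream, and of the 412 others 304, 58 and 50.

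**Figure D5:**
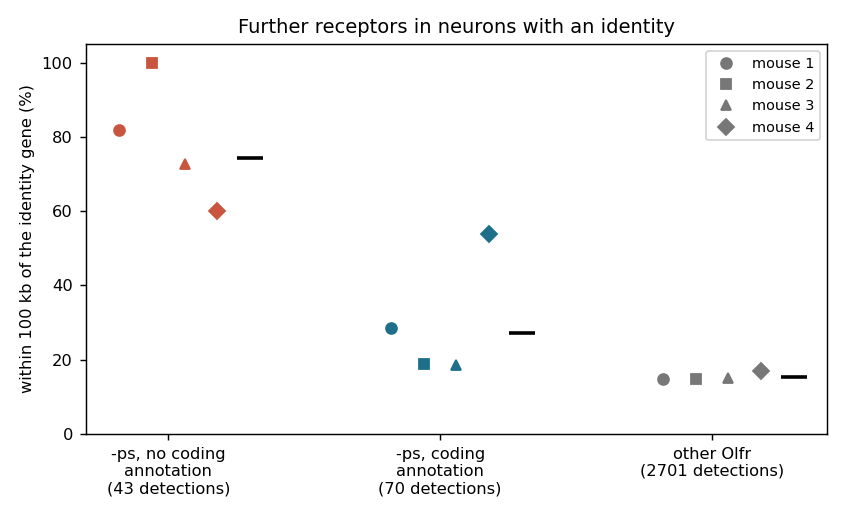
Percent of further-receptor detections in assigned mature OSNs whose gene lay within 100 kb of the neuron's identity gene, without Olfr1372-ps1. Symbols are mice and bars the value over all detections. Non-coding -ps genes stand between 60.0% and 100%, coding ones between 18.5% and 53.8%, and other Olfr genes between 14.7% and 16.8%.

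The pairs were close neighbours. Olfr1026 was found in 8 of the 20 neurons with the identity Olfr1025-ps1, and its gene model starts 177 bases after the end of that of Olfr1025-ps1 on the same strand. The 2 genes were 89.5% identical over 911 bases, and each of the 8 neurons had 1 UMI of Olfr1026. Olfr1192-ps1 was found in 6 of the 14 neurons of Olfr1191-ps1, 71 bases away. Olfr1494 was found in 5 of the 6 neurons of Olfr1493-ps1, 11745 bases away, and Olfr1177-ps in 6 of the 49 neurons of Olfr1176, 84 bases away on the opposite strand. Among non-coding members, Olfr1038-ps was found in 5 of the 29 neurons of Olfr1039, 1639 bases away on the opposite strand, Olfr1117-ps1 was found in 4 of the 12 of Olfr1116 and Olfr795-ps1 in 4 of the 27 of Olfr794, the latter pairs on the same strand with gaps of 4950 and 5570 bases. Olfr1038-ps and Olfr795-ps1 were chosen after their values were seen. Whether such a UMI is a transcript of its own or one that runs on from the neighbour was not tested. In neurons with a -ps identity, 21 of 90 detections of another Olfr gene were near, and 19 of these lay downstream on the same strand.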

How the data were processed

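Per the labels and the study's methods, the authors prepared 10x Chromium Single Cell 3' v3.1 libraries, aligned the reads with Cell Ranger 6.0.1 to GRCm38 with an Ensembl annotation in which the 3′ ends of odorant receptor genes had been redrawn, and deposited raw UMI counts per gene and barcode with a cell table of types and receptor identities. Cells had been removed by the authors as blood, immune or high mitochondrial clusters, over 10% mitochondrial UMIs or under 1000 genes. The 1410 Olfr rows of the merged table differed from the matrices in 0 rows. Of the cell table, 2 columns were not used.

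The -ps genes, their classes and the gene lists were chosen with earlier results of these data known. Gene types, positions and sequences came from GENCODE M21 (GRCm38). A comparison of 1 conserved site among receptors is not reported here. The highest receptor of a cell had the most UMIs, and cells with ties (94 of 803 iOSN1, 4 of 985 iOSN2, 32 of 10271 mOSN) were left out. No doublet caller was run, and the 4% of cells with the most UMIs per mouse were left out as an alternative. UMI sums per mouse were tested in edgeR 4.0.16 (R 4.3.3; TMM scaling, filterByExpr, quasi-likelihood test, adjusted p under 0.05) with the mouse as block, since the sums of 1 mouse share an animal and a library. Deviations of paired sums correlated at 0.002 to 0.162. Scripts were tested on simulated data. Other values were compared within mice with exact two-sided sign-flip permutation tests. Python 3.11.15 with scipy 1.17.1 and pandas 2.3.3 was used, and DESeq2 1.42.0 as an alternative.

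Named -ps genes were the 20 with the most UMIs in mOSN, those assigned to at least 5 mOSN, those called in iOSN1 or iOSN2 (at most 10 per direction and comparison) and the 5 most often found as further receptors. Named other genes were receptor partners, the nearest receptors, the gene lists and the 10 called genes with the largest change. Intervals and limits of zero counts cover counting error only. Standard errors of edgeR's fits were computed from the change and its test statistic. The p-values of these fits rest on a spread between mice that is pooled over genes. They need not measure the spread of a single gene. Sign-flip p-values measure the spread between these 4 mice.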

Additional observations from a re-analysis of the deposited data

Results flagged for a closer look

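Of 60 sets of 4 mouse values, 9 had 1 mouse far from the others relative to the range of the set. The limit used would flag about 1 in 20 of independent, continuous sets. Some sets here were small counts with ties or came from the same cells, so the rates cannot be compared. A -ps gene was the highest receptor in 3.94% of iOSN2 of mouse 2, against 1.55 to 1.93% in the other mice, and an other coding Olfr gene in 96.1% there, against 97.8 to 98.1%. Both values come from the same 254 cells. Non-coding -ps genes other than Olfr1372-ps1 gave 1.14 UMIs per 10000 in iOSN2 of mouse 1, against 0.0104 to 0.0514 in the others, and 142 of these UMIs were those of Olfr1060-ps1 in 1 cell. Olfr1372-ps1 gave 0.0206 UMIs per 10000 in iOSN2 of mouse 1, while mice 2 to 4 lay between 0.0415 and 0.0457. Olfr genes with neither the suffix nor a coding annotation were the highest receptor in 2.08% of iOSN1 of mouse 4, against 0.505 to 0.741%, and in 0.0546% of mOSN of mouse 3, which was 1 neuron, against 0 in the others. Among populations, Olfr766-ps1 had 5 neurons in mouse 1 and 1 in each other mouse, Olfr465-ps1 had 3 in mouse 2 and Olfr721-ps1 had 3 in mouse 3, with 2 in each other mouse, which are differences of 1 neuron.

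Barcodes that the study removed also held -ps transcripts. The 5950 removed barcodes had 919 UMIs of -ps genes, or 3.60% of their Olfr UMIs. The removed mature OSN clusters held 334 of these in 708 barcodes, the immune clusters 323 in 2391 and the clusters of high mitochondrial share 235 in 2003.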

How the results depend on the processing

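Counting only the non-coding -ps genes against annotated coding genes, the share of Olfr UMIs was 0.287% in mOSN, 0.474% in iOSN2 and 2.33% in iOSN1. The share of identities was 0.0886%, in 4 populations. The highest receptor was such a gene in 4.54% of iOSN1, 0.373% of iOSN2 and 0.506% of mOSN. These shares include Olfr1372-ps1 and leave coding -ps genes out of the choice. Among all Olfr genes and without Olfr1372-ps1 they were 2.62%, 0.37% and 0.145%. The difference in further receptors was -9.04 ± 22.2 points over 8 neurons, with 20.8, -28.9, -5.75 and -22.3 in mice 1 to 4. For all -ps genes that difference was -0.253 points at 2 or more UMIs per receptor, and there 45.1% of further receptors were -ps genes, with Olfr1372-ps1 included. At 1 or more UMIs 21.7% were with Olfr1372-ps1 and 4.03% without it. Thinned to 5000 UMIs per neuron the difference was 7.36 points. Leaving out 1 mouse gave differences from -2.35 to 3.03 points.

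Without the replicate block, -ps neurons against others gave 20 calls and ventral against dorsal 1791, while iOSN1 gave 8682 and iOSN2 4569. The call of Olfr1192-ps1 in iOSN1 and of Olfr839-ps1 in iOSN2 was lost without the block, as were 11 named genes of the -ps neuron comparison, which numbered 24 calls in DESeq2's test, 32 to 62 with 1 mouse left out and 30 in neurons with 1 receptor. Of its 68 calls 21 had no adjusted p in DESeq2. Calb2, Cd36, Zpld2, Tuba4a, Kirrel3, Gm49542 and Dnaic2 held their call in all of its edgeR alternatives. Of these, Cd36 and Dnaic2 passed the filter on low counts through the comparison neurons alone. Without the filter on low counts, the -ps genes called numbered 35 in iOSN1, 21 in iOSN2 and 27 in ventral against dorsal neurons. Of all genes, 10026 of 27399, 5375 of 26297 and 3844 of 25092 were called there. By DESeq2 13 -ps genes were called in iOSN2, beside 4893 of 12954 genes, and Olfr1177-ps lost its call in ventral against dorsal neurons. Changes that turned sign all concerned genes not called. In iOSN1 these were Olfr104-ps without the block (0.85) and, leaving out 1 mouse, Olfr1291-ps1 (-4.00 to 0.13) and Olfr766-ps1 (-8.48 to 0.55). In iOSN2 they were Olfr1291-ps1 (1.30 without the block, -0.58 to 0.77 leaving out 1 mouse), Olfr1438-ps1 (0.29 and -1.52 to 0.56), Olfr1177-ps (-2.09 to 0.62) and Olfr1555-ps1 (-1.28 to 0.59). In ventral against dorsal neurons it was Olfr718-ps1 (-0.25 to 1.13). The causes were not tested. Neurons of -ps receptors without a long frame were not compared, since there were 2.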
